A study of Mus musculus with 32 samples.

Results

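The Xlr (X-linked lymphocyte regulated) genes are a multicopy family of the mouse X chromosome. The 4 genes described here, Xlr, Xlr3a, Xlr3c and Xlr4a, are 4 of 1006 X-linked genes listed in the deposited tables. They were chosen by symbol and with their measured levels known, so the levels on the active X (Xa) and the inactive X (Xi) are given as a description and carry no test.

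Xlr proteins are nuclear proteins related to Sycp3, a structural component of the axis of meiotic chromosomes, and the family is known from lymphoid cells, germ cells and brain. Xlr is the founding gene. Its relatives Xlr3, Xlr4 and Xlr5 lie together in another part of the X, as near-identical copies in alternating order. In mouse brain, Xlr3b, Xlr4b and Xlr4c are imprinted, with the paternal copy repressed. In extraembryonic endoderm the paternal X is the one that is inactivated, coated by the noncoding RNA Xist.

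The data are RNA-seq values of X-linked genes in XEN cells, which are stem cells of the mouse extraembryonic endoderm. All groups share the strain background, 129S1/SvImj X JF1/Ms. There were 32 samples, and the labels put them in 12 groups. WT and XRRa_KO had 3 samples each, XistpA had 4, and XRR_KO had 2, which are 2 clones. XRRb_XaKO and XRRb_XiKO had 2 samples each, as did XRRc_XaKO and XRRc_XiKO. Rad21 degron cells had 4 samples under DMSO and 4 under dTAG, from 2 clones for each treatment. Ctcf degron cells had 2 samples under DMSO and 2 under dTAG, treated for 48 h. The compound dTAG brings about the breakdown of a tagged protein, here the cohesin subunit Rad21 or the insulator protein Ctcf. What XistpA and the XRR names stand for is not explained in the labels.

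Each group has 1 merged value per gene and allele, in FPKM, fragments scaled to transcript length and sequencing total. There is therefore no replicate spread, no SD and no p-value for any value below, and the sequencing depth is unknown. The values fall into 4 tables, 1 for WT, XistpA, XRR_KO and XRRa_KO, 1 for the XRRb and XRRc groups, and 1 for each degron. Levels of the Xlr genes are compared only if they stand in the same table, and ranges over several tables are descriptions. Other comparisons use ratios, ranks or the Xi share, the percentage of Xa plus Xi FPKM that is on Xi. "Rose" and "fell" mean a change of 1 or more in log2(FPKM + 0.5), for genes whose Xa plus Xi FPKM averaged 1 or more in the table ("tested genes"). A level of 0 on both alleles can be a failed estimate and is described as listed at 0.

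Xist, which checks the X called inactive, was at 6.72 to 35.6 FPKM on Xi in 10 groups, at 1.18 FPKM in XRR_KO and at 0 in XistpA. On Xa it stayed at or below 0.0765 FPKM. The tables hold X-linked genes, so markers of XEN cells on other chromosomes were not analysed here. Of the X-linked genes with roles in extraembryonic endoderm, Cited1 ranged from 59.5 to 125 FPKM on Xa in the WT, XaKO and DMSO groups, Trap1a from 32.2 to 104 FPKM and Gpc3 from 9.18 to 30.4 FPKM. Amot ranged from 2.43 to 4.01 FPKM. Nr0b1, expressed in embryonic stem cells, and the placental genes Rhox6 and Rhox9 were listed at 0 in those 5 groups, while the placental gene Plac1 was at 0.306 to 2.95 FPKM and Esx1 at 0 or, in XRRb_XaKO, 1.33 FPKM.

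The copies differ in how much of their transcript is their own. Pieces of 50 bases were cut from the longest coding transcript of each gene (GENCODE M21) and looked up in all transcripts of other genes, on either strand. For Xlr, 88.0% of its 1811 pieces occurred in no other gene, and most shared pieces were in 3830403N18Rik, a gene that RefSeq also lists under the name Xlrl. Only 28.3% of the pieces of Xlr3a, 27.9% of Xlr3c and 30.5% of Xlr4a were their own, the rest being shared with Xlr3b and other Xlr3 genes, or with Xlr4b and Xlr4c. With pieces of 100 bases these shares were 52.5%, 53.3% and 54.5%, and 98.9% for Xlr.

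Over 1585 aligned positions the transcripts of Xlr3a and Xlr3c were 97.5% identical, with 24 mismatches. Xlr3b and Xlr3c were 99.1% identical, and 6.67% of the 50-base pieces of Xlr3b were its own. The read length and the treatment of reads that match several genes are not given in the sources used here. Values of Xlr3a, Xlr3c and Xlr4a are therefore uncertain as values of single copies.

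The tables hold 6 more rows with an Xlr symbol, Xlr3b, Xlr4b, Xlr4c, Xlr5a, Xlr5b and Xlr5c, and all 6 were listed at 0 on both alleles in all 12 groups. Of their 50-base pieces, 6.67% to 15.1% were their own in Xlr3b and the Xlr5 genes and 26.9% in Xlr4b, below the 27.9% to 30.5% of Xlr3c, Xlr3a and Xlr4a. Xlr4c lay above these, at 47.8%.

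**Figure D1:**
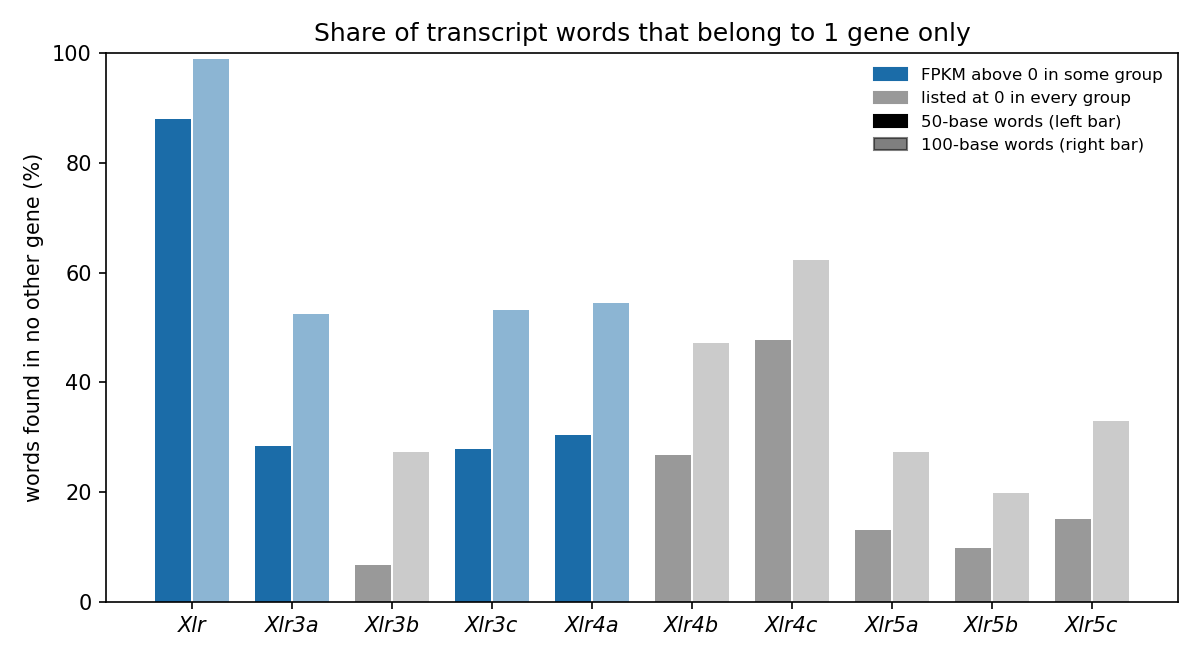
The bars give, for each Xlr gene, the percentage of 50-base (left) and 100-base (right) pieces of its longest coding transcript that occur in no other GENCODE M21 gene. Genes with FPKM above 0 in some group are blue and genes listed at 0 in every group are grey. Xlr stands at 88.0% for 50-base pieces, while Xlr3a, Xlr3c and Xlr4a lie between 27.9% and 30.5%.

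The regions before the gene starts show what the 4 genes share, with Xlr lying apart from the other 3. The 250 bases before the start of each gene are given from RefSeq on build GRCm38.p6, another build than the authors' mm9. All 4 genes are on the minus strand. The window is chrX:53797707-53797956 for Xlr, chrX:73097096-73097345 for Xlr3a, chrX:73265391-73265640 for Xlr3c and chrX:73082508-73082757 for Xlr4a. Sequences run 5′ to 3′ along the gene, and capitals mark the longest run of bases that all 4 windows hold, found by comparing the windows.
Xlr: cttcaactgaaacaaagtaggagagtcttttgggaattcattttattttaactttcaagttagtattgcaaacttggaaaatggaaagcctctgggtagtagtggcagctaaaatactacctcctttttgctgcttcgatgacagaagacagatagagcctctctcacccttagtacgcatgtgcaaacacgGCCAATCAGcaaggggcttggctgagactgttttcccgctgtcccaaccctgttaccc
Xlr3a: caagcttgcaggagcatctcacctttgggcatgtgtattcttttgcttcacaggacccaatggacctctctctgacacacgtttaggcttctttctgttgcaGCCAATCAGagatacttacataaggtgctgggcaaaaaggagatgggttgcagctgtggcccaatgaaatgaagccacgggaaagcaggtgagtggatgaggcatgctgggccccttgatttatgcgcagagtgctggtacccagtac
Xlr3c: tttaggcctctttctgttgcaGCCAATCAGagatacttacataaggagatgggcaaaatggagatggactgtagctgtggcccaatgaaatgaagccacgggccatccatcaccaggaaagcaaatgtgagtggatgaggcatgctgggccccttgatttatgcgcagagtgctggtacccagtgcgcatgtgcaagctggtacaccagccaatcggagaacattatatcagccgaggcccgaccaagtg
Xlr4a: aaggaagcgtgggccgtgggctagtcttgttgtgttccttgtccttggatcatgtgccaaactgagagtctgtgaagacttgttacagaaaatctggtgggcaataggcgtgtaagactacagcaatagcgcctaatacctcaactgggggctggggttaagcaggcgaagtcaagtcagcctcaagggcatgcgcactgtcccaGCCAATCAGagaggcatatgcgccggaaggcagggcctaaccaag

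The shared run GCCAATCAG, with 9 bases, contains CCAAT, the core of the binding site of the factor NF-Y. It occurs on either strand in 2.02% of 32851 RefSeq windows of this length. CCAAT alone occurs in 33.8% of windows, 3 times each in those of Xlr3a and Xlr3c and 1 time each in those of Xlr and Xlr4a, where it is the one inside the shared run. A longer run, CAGCCAATCAGAGA with 14 bases, is shared by Xlr3a, Xlr3c and Xlr4a and occurs in 16 windows, 6 of them in front of Xlr genes. The windows of Xlr3b, Xlr4b and Xlr4c, listed at 0 in every group, also hold both runs, and those of the Xlr5 genes do not. TATAAA, the core of a TATA box, is in none of the 4 windows and in 12.4% of all. CACGTG, an E-box, is also in none of the 4 and in 6.02% of all. With the 50 bases after the start included, the windows were 88.6% identical between Xlr3a and Xlr3c over 236 aligned positions.

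Xlr was expressed from Xa in all 12 groups. It was at 32.0 FPKM on Xa in WT, 43.8 FPKM in XRRa_KO, 49.8 FPKM in XRR_KO and 73.8 FPKM in XistpA. WT was thus the lowest of these 4 groups and XistpA the highest. In the XRRb and XRRc groups, Xlr was at 67.3 FPKM in XRRb_XaKO, 64.9 FPKM in XRRb_XiKO, 59.9 FPKM in XRRc_XaKO and 70.7 FPKM in XRRc_XiKO, a narrower range. It was at 20.2 FPKM with DMSO and 19.1 FPKM with dTAG in Rad21 degron cells, and at 25.6 and 36.4 FPKM in Ctcf degron cells. Among tested genes ordered by Xa level, Xlr ranked 34th to 61st, with 247 to 277 genes in a table.

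Xlr3a had the widest range of levels among the 4 genes. On Xa it was at 138 FPKM in WT, 127 FPKM in XRRa_KO and 83.0 FPKM in XistpA, and it was listed at 0 on both alleles in XRR_KO. Levels in the XRRb and XRRc groups were 150.02 and 137 FPKM in XRRb_XaKO and XRRc_XaKO, and 94.7 and 88.6 FPKM in XRRb_XiKO and XRRc_XiKO. Both XaKO values lie above both XiKO values. In all 4 degron groups Xlr3a was listed at 0 on both alleles. Of 46 genes at 50 FPKM or more in WT, counting Xa plus Xi, Xlr3a was the only one listed at 0 in both columns of the Rad21 table, and likewise in the Ctcf table. Within the first table it was the only gene listed at 0 in a column that reached 50 FPKM in another.

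Xlr3c, the close copy of Xlr3a, was above 0 on Xa in all 12 groups. It was at 87.2 FPKM in WT, 84.3 FPKM in XRRa_KO, 80.5 FPKM in XistpA and 51.1 FPKM in XRR_KO. The XRRb and XRRc groups lay between 83.9 and 94.1 FPKM. Rad21 degron cells had 31.5 FPKM with DMSO and 30.3 FPKM with dTAG, and Ctcf degron cells 12.4 and 29.5 FPKM. Its rank on Xa was 30th to 32nd in the 8 groups outside the degron tables, 38th and 30th in the Rad21 groups, and 75th and 45th in the Ctcf groups.

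Xlr4a was low wherever it was detected. On Xa it was at 1.96 FPKM in WT, 1.81 FPKM in XRRa_KO and 0.428 FPKM in XistpA, and it was listed at 0 on both alleles in XRR_KO. In the second table it was at 0.945 FPKM in XRRb_XaKO, 0.957 FPKM in XRRb_XiKO and 1.91 FPKM in XRRc_XaKO, and listed at 0 in XRRc_XiKO. It was listed at 0 in both Rad21 groups and in Ctcf degron cells with DMSO, and stood at 1.38 FPKM with dTAG. Xlr4a averaged 1.05 FPKM in the first table and so was just inside the level for tested genes, and just outside it in the second at 0.953 FPKM.

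**Figure D2:**
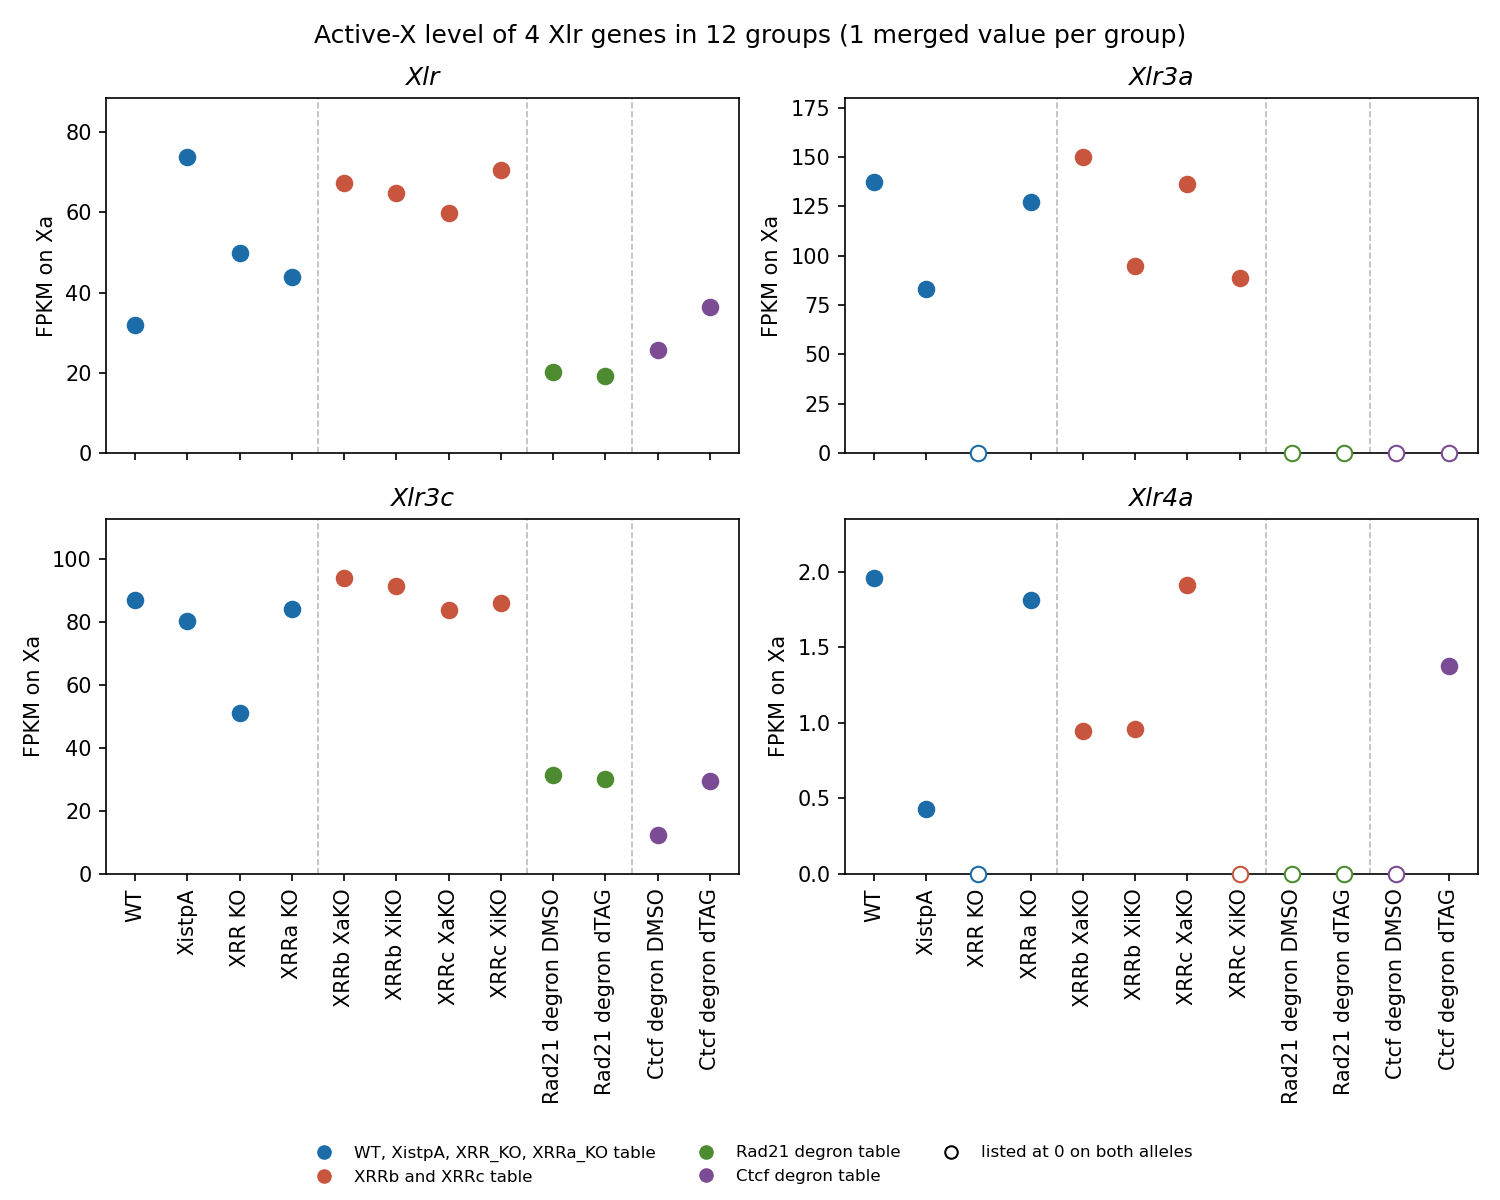
Each point is the authors' merged FPKM on Xa of 1 gene in 1 group, with linear axes from 0, colours for the 4 tables and open circles for genes listed at 0 on both alleles. Xlr3a is open in XRR_KO and in all 4 degron groups, while Xlr and Xlr3c are above 0 in all 12.

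The ratio of Xlr3a to Xlr3c does not depend on the scaling of a column. It does depend on how reads that match both copies were divided, which is not known, so values across tables are descriptions. The ratio took 3 ranges. The ratio was 1.58 in WT, 1.51 in XRRa_KO, 1.59 in XRRb_XaKO and 1.63 in XRRc_XaKO. In XistpA, XRRb_XiKO and XRRc_XiKO it was 1.03 each time. In XRR_KO and the 4 degron groups it was 0, since Xlr3a was listed at 0 there, which can be a failed estimate. How far single samples vary around these values is not known. Between XaKO and XiKO, Xlr3c had changes of -0.04 in XRRb and 0.04 in XRRc on the log2(FPKM + 0.5) scale, and Xlr3a had changes of -0.66 and -0.62, so the lower ratio went with lower Xlr3a. The ratio of Xlr to Xlr3c went from 0.367 in WT to 2.07 in Ctcf degron cells with DMSO.

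**Figure D3:**
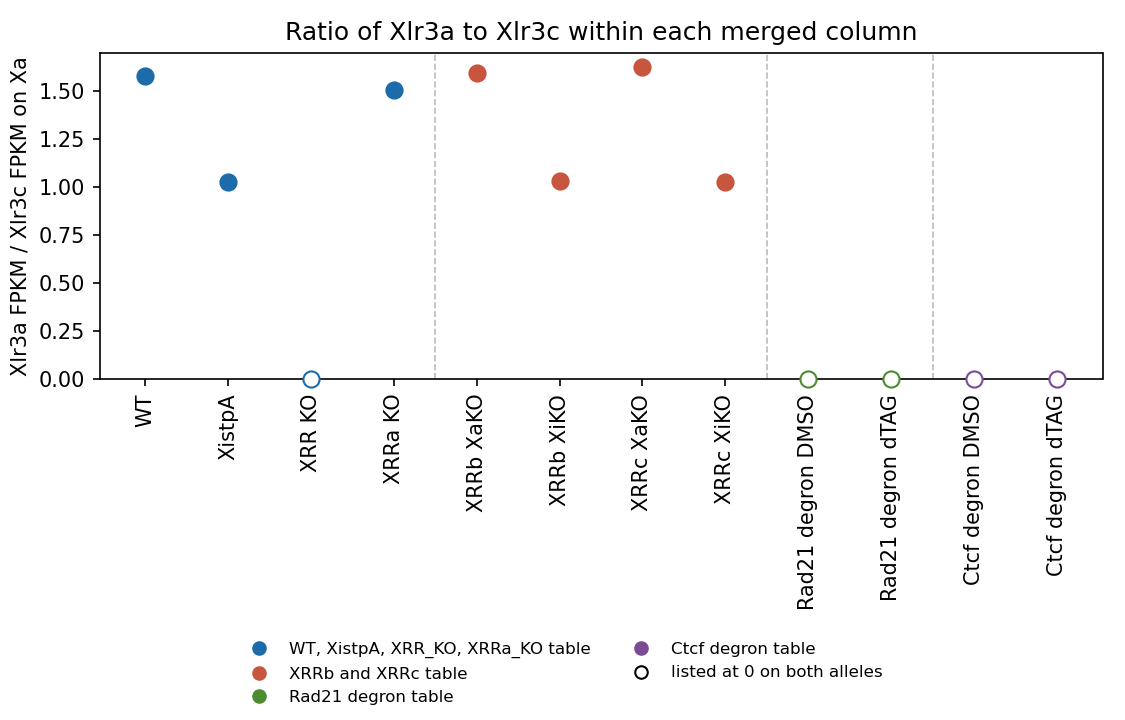
Each point is Xlr3a FPKM divided by Xlr3c FPKM on Xa in 1 group, colours mark the 4 tables and open circles mark Xlr3a listed at 0. Values lie at 1.51 to 1.63 in 4 groups, at 1.03 in 3 groups and at 0 in 5 groups.

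In XistpA set against WT, Xlr was higher on both alleles. On Xa, Xlr rose by 1.19 on the log2(FPKM + 0.5) scale, from 32.0 to 73.8 FPKM. This was the largest Xa rise among 270 tested genes, of which 1.11% rose. WT was itself low for Xlr. The ratio of Xlr to Xlr3c was 0.367 in WT, 0.520 in XRRa_KO, 0.916 in XistpA and 0.976 in XRR_KO. Xlr4a went from 1.96 to 0.428 FPKM, a change of -1.41 that met the size rule, as did 3.33% of genes. It was among the tested genes only through its WT and XRRa_KO levels, so nothing is read from this call. Xlr3a had a change of -0.73 and Xlr3c of -0.11, so neither passed the size rule. Of the 4 X-linked endoderm markers, Gpc3 fell on Xa, from 19.4 to 8.54 FPKM, and its part in the Xlr values was not tested. Trap1a, Cited1 and Amot stayed within the size rule on Xa, with changes of 0.38, 0.14 and -0.10.

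On Xi in XistpA, Xlr was at 3.004 FPKM against a listed 0 in WT, which passed the size rule for a rise, as did 12.2% of tested genes, while 1.48% fell. The Xi share of Xlr was 3.91%, below the 10% used here to call a gene expressed from Xi. Xlr3c had 0.226 FPKM on Xi, a share of 0.280%, the only Xi value above 0 that it had in any group. For Xlr3a and Xlr4a Xi was at 0. With a pseudocount of 0.1 in place of 0.5, Xlr3c also passed the size rule on Xi.

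XRR_KO was compared with the same WT column, so the values share that control. On Xa, Xlr3a fell from 138 FPKM to a listed 0 on both alleles, where 3.70% of 270 genes fell. Xlr4a went from 1.96 FPKM to a listed 0, with the same limit on its call as in XistpA. Xlr3a and Xlr4a were the only tested genes listed at 0 on both alleles in the XRR_KO column. Xlr4a counts as tested only through its WT and XRRa_KO levels, and it was listed at 0 in 5 of 12 groups. Xlr3a and Xlr4a are neighbours in RefSeq gene order, with no listed gene between them. Xlr3c, 11 listed genes along when both ends are counted from Xlr4a, had a change of -0.77, and Xlr one of 0.63. The median Xa change of all tested genes was -0.19, so Xlr3c was low and Xlr high relative to it, both within the size rule. The column merges 2 clones, so whether Xlr3a is at 0 in both was not tested. The 4 X-linked endoderm markers stayed within the size rule on Xa. Cited1, Gpc3, Trap1a and Amot had changes of -0.78, -0.74, -0.26 and 0.26, and their part in the Xlr values was not tested.

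On Xi in XRR_KO, Xlr was at 2.03 FPKM, again from a listed 0 in WT and past the size rule, as were 15.9% of tested genes. Its Xi share was 3.92%. The other 3 members had 0 on Xi. Xist on Xi was at 1.18 FPKM in this group and at 0 in XistpA, against 15.5 FPKM in WT, and its part in the Xi values of Xlr was not tested.

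In XRRa_KO none of the 4 members passed the size rule. Of 270 genes, 0.370% rose and 0.370% fell on Xa, and 5.93% rose on Xi. Xlr had an Xa change of 0.45, the 7th highest of the 270, while Xlr3a, Xlr3c and Xlr4a had changes of -0.11, -0.05 and -0.09. All 4 were at 0 on Xi. Xist was at 7.86 FPKM on Xi. The 4 endoderm markers stayed within the size rule on Xa. Gpc3, Cited1, Amot and Trap1a had changes of 0.93, -0.54, 0.07 and 0.001.

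**Figure D4:**
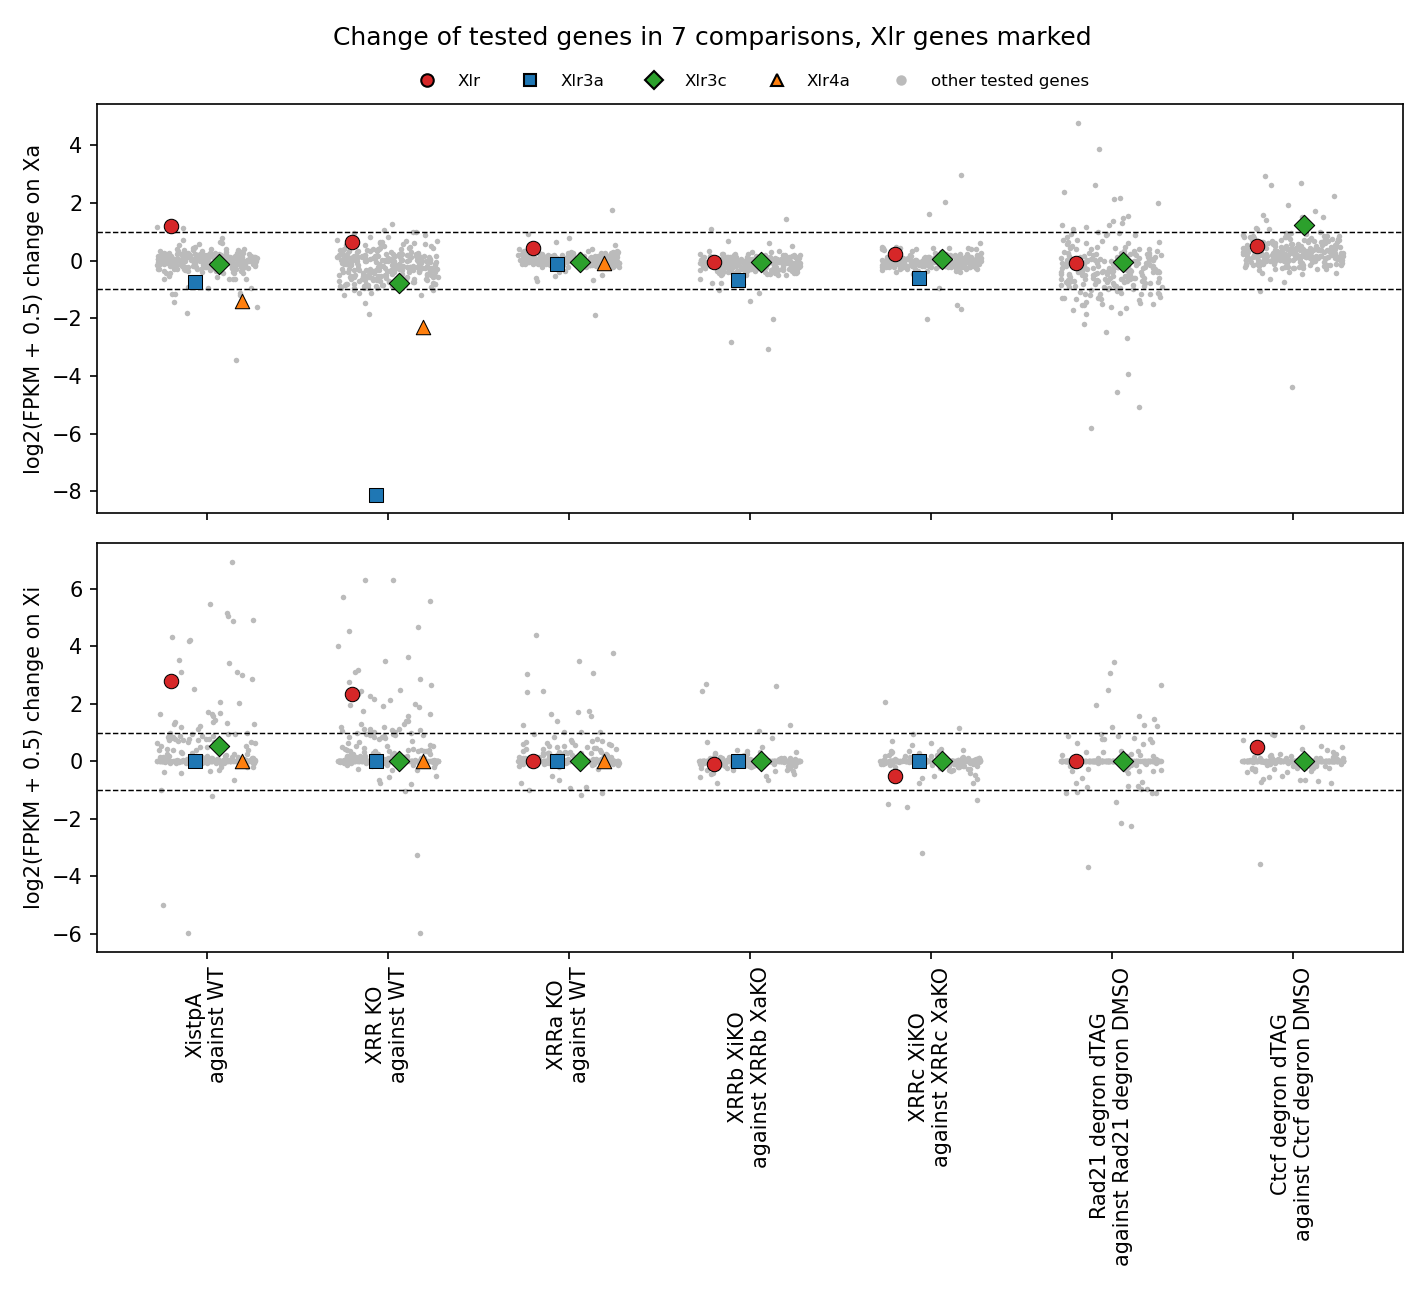
Each point is the log2(FPKM + 0.5) change of 1 tested gene on Xa (top) or Xi (bottom), with Xlr genes coloured and dashed lines at the size rule of 1. The lowest Xa point in XRR_KO is Xlr3a, which was listed at 0 there, so its plotted distance depends on the added 0.5, and Xlr lies above the line on Xi in XistpA and XRR_KO.

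The Xi rise of Xlr can be read beside its neighbours. The nearest tested gene on one side is Mospd1, which encodes a protein of the endoplasmic reticulum membrane, and on the other 3830403N18Rik, with 14 listed genes between those ends, Xlr among them. Mospd1 went from 0.0311 FPKM on Xi in WT to 5.23 FPKM in XistpA and 1.80 FPKM in XRR_KO, and 3830403N18Rik from 0.249 FPKM to 91.8 and 35.6 FPKM. Both neighbours passed the size rule in both groups. Their Xi shares were 23.9% and 37.8% in XistpA and 11.8% and 29.9% in XRR_KO, above those of Xlr (3.91% and 3.92%). In XRRa_KO, 3830403N18Rik also passed it, at 2.05 FPKM on Xi, while Mospd1 and Xlr were at 0. 3830403N18Rik shares 21.8% of its 50-base pieces with other genes, mostly with Xlr, so assignment of reads between these 2 genes was not tested.

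The Xlr3 and Xlr4 cluster lies 109 listed genes beyond Xlr. Its nearest tested neighbours outside the family are Zfp185, which encodes a protein with a LIM domain, and the zinc finger gene Zfp275. Both were at 0 on Xi in WT, XistpA and XRR_KO. Zfp275 reached 0.0286 FPKM on Xi in XRRa_KO, an Xi share of 1.02%. None of the 3 cluster members passed the size rule on Xi in these groups. On Xa, Zfp185 and Zfp275 had changes of 0.65 and 0.30 in XRR_KO, where Xlr3a and Xlr4a were listed at 0.

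**Figure D5:**
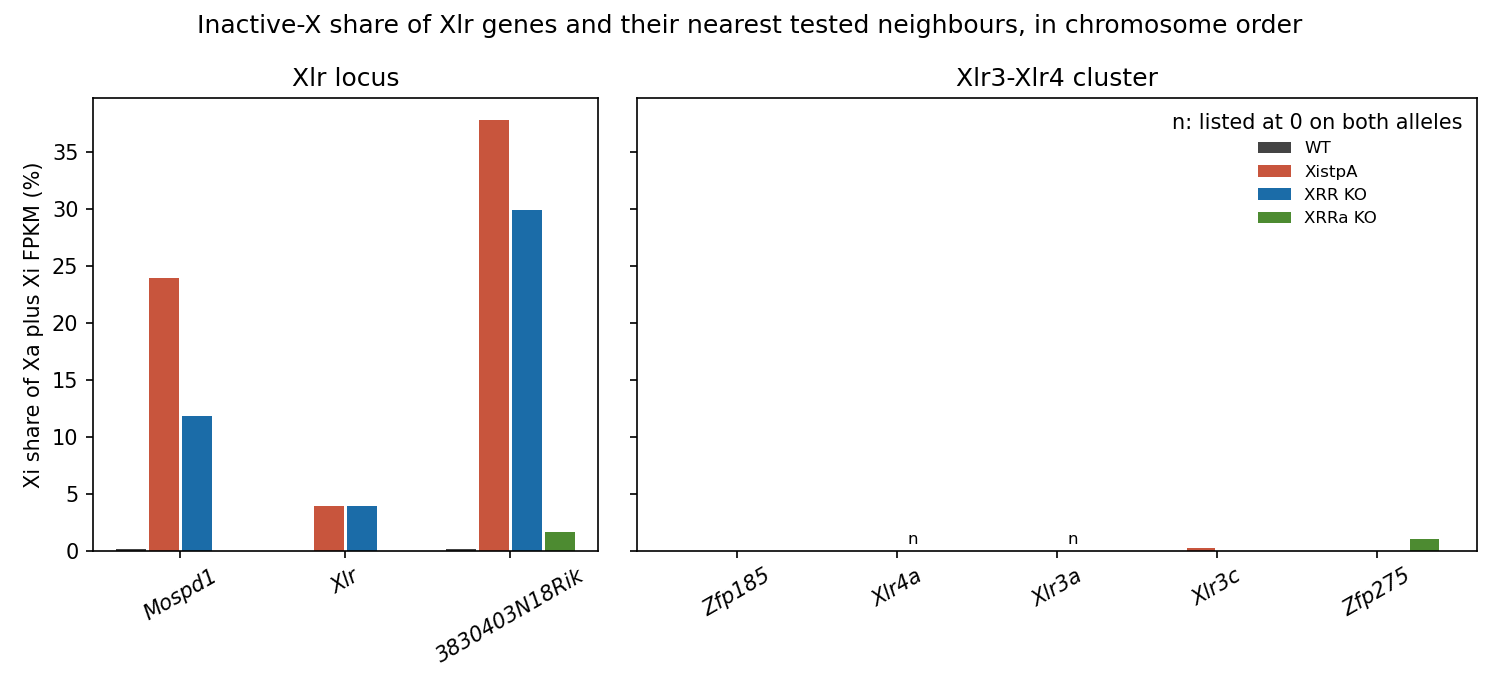
Bars give the Xi share in percent in WT, XistpA, XRR_KO and XRRa_KO for Xlr and its nearest tested neighbours (left) and for the Xlr3 and Xlr4 cluster with its neighbours (right), in chromosome order, with n where a gene was listed at 0 on both alleles. Mospd1, Xlr and 3830403N18Rik have bars in XistpA and XRR_KO, at 3.91% and 3.92% for Xlr. In XRRa_KO, 3830403N18Rik is at 1.62%. The cluster members stay at or below 0.280% (Xlr3c in XistpA), and their neighbour Zfp275 reaches 1.02% in XRRa_KO.

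XiKO was set against XaKO in XRRb and in XRRc. No tested member passed the size rule in either, on Xa or Xi. In XRRb 0.766% of 261 genes rose and 2.30% fell on Xa, and on Xi 1.92% rose and 0 fell. In XRRc 1.15% rose and 1.15% fell on Xa, and 0.766% and 1.53% on Xi. Xlr3a had the lowest change of the members tested, -0.66 in XRRb and -0.62 in XRRc, the 10th and 5th lowest of 261. Xlr changed by -0.05 and 0.24 on Xa. On Xi it was at 0.158 and 0.123 FPKM in XRRb_XaKO and XRRb_XiKO, and at 0.215 FPKM and 0 in XRRc_XaKO and XRRc_XiKO, with shares of at most 0.358%. Xlr4a was not tested in this table. Of the 4 endoderm markers, Gpc3 rose on Xa in XRRb, from 9.18 to 20.0 FPKM, and fell in XRRc, from 30.4 to 10.02 FPKM. The part of Gpc3 in the Xlr3a values was not tested. Amot, Cited1 and Trap1a stayed within the size rule on Xa in XRRb and in XRRc.

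Rad21 degradation left the 2 tested members within the size rule. Xlr changed by -0.07 on Xa and Xlr3c by -0.06, and both were at 0 on Xi with either treatment. In the same columns 6.48% of 247 genes rose and 15.0% fell on Xa, with a median change of -0.26, and 4.05% rose and 3.24% fell on Xi. Relative to that median both members were slightly high. Of the 4 endoderm markers, Cited1 fell on Xa, from 59.5 to 12.7 FPKM. Trap1a, Amot and Gpc3 stayed within the size rule on Xa, with changes of 0.18, -0.51 and -0.96. Xlr3a and Xlr4a were listed at 0 in both columns and give no change. Rad21 itself is not X-linked, so its depletion was not analysed here.

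Ctcf degradation was accompanied by higher Xlr3c. On Xa, Xlr3c rose by 1.22 on the log2(FPKM + 0.5) scale, from 12.4 to 29.5 FPKM, where 5.42% of 277 genes rose and 0.722% fell. The median Xa change of all tested genes was 0.23, and at equal median Xa FPKM the change of Xlr3c was 0.96, within the size rule. Centred on the median Xa change it was 0.99. Xlr had an Xa change of 0.50. Xlr4a went from a listed 0 to 1.38 FPKM on Xa and was not tested, since its mean in this table was 0.688 FPKM. On Xi, Xlr was at 0.204 FPKM with dTAG and 0 with DMSO, a share of 0.557%, where 0.361% of genes rose. Xlr3a was listed at 0 with both treatments. The endoderm markers Cited1, Amot, Trap1a and Gpc3 stayed within the size rule on Xa, with changes of 0.76, 0.59, 0.40 and -0.08.

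Across all 48 combinations of the 4 genes and 12 groups, 10 were listed at 0 on both alleles, 5 each for Xlr3a and Xlr4a. Xi was above 0 in 7 combinations, 6 of them Xlr. No member had an Xi share of 10% or more in any group. The rule that split reads between alleles is not known, so a listed 0 on Xi does not show that a gene is silent there.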

How the data were processed

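Libraries were unstranded Smart-seq2 libraries of polyadenylated RNA, per the labels' protocols. Trim Galore 0.6.4 with HISAT2 2.2.0, StringTie 2.1.1 and mm9 are named, without roles, in the submitters' processing notes. The authors deposited FPKM values of X-linked genes for Xa and Xi in 4 tables with 24 columns. The names of the tables say merged and the columns name whole groups, so values are taken as merged over the samples of a group. The rule that split reads between alleles was not given in the sources used here. Columns of the Ctcf table name only DMSO or dTAG and were assigned by elimination.

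Because columns are merged, the planned limma test could not be run, and differences are the authors' merged values with a size rule. Members and lists were chosen with earlier results of these data known. Named genes are the 4 members, other Xlr rows, related multicopy genes past the size rule, the 3 genes most like each member, and the nearest listed genes in RefSeq order (999 of 1006 genes placed, GRCm38.p6). Nearest tested neighbours, 3830403N18Rik, 1700013H16Rik and the sequence comparisons were chosen after values were seen, as were 100-base pieces and leaving out 1 group from the correlations. Alternatives were pseudocounts, filters, scaling and share rules. Transcripts and promoters were aligned with Biopython 1.88, under Python 3.11.15 with pandas 2.3.3, numpy 2.4.6 and matplotlib 3.10.9.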

Additional observations from a re-analysis of the deposited data

How the results depend on the processing

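No paired analysis was possible because each column pools all samples of its group and carries no replicate number, and for the same reason no replicate could be left out in turn. Of 84 member counts recomputed under other settings, 75 stayed within 1.5 times the reported count and 9 did not. Many of the 75 are counts of 0 that stayed at 0, so this number says little about the counts above 0. With a filter of 5 FPKM, Xlr4a was no longer tested and the Xa count was 1 in XistpA and 1 in XRR_KO. Without a filter, Xlr4a entered, and the Xa count was 1 in XRRc and 2 with Ctcf degradation. A pseudocount of 0.1 brought Xi counts of 2 in XistpA, 1 in XRRc and 1 with Ctcf degradation, through Xlr3c and Xlr values of at most 0.226 FPKM. At equal median Xa FPKM the Xa count with Ctcf degradation was 0, and centred on the median Xa change it was 0, because Xlr3c was then just under the size rule. Of the recomputed changes of tested members, 253 kept their call, 3 newly passed the size rule, 2 no longer did and none reversed. Share rules of 5% and 20% changed no count. The percentage of all tested genes past the size rule, rises and falls together, was recomputed under the same settings. Of these percentages, 52 stayed within 1.5 times the main value and 32 did not. The background given beside the member calls therefore depends on the setting. In XistpA the percentage went from 13.7% to 23.7% on Xi with a pseudocount of 0.1. On Xa in XistpA it went from 4.44% to 1.36% without a filter. Scaling moved the balance of Xa calls over all genes in XRR_KO from 3 rises and 10 falls to 6 and 7 or 7 and 4, and with Rad21 degradation from 16 and 37 to 25 and 19 or 22 and 26. On Xi with Rad21 degradation it moved from 10 and 8 to 14 and 4 or 17 and 4, and with Ctcf degradation from 1 and 1 to 0 and 1 when centred. With FPKM values only, the depth behind a listed 0 is unknown.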

Other observations

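Few other multicopy or germline genes of the X reached the level for tested genes, which does not show that the rest are absent. The list of 74 such genes held, among others, the Rhox, Magea and Mageb genes, and left out other Mage genes such as Maged1. Of these 74, Tex13 and Trap1a were tested in the first and second tables, and Tsga8 also in the degron tables. On Xa none passed the size rule in the 3 comparisons with WT, in XRRb, in XRRc or with Ctcf degradation. On Xi, Trap1a, also counted above as an endoderm marker, was at 1.34 FPKM in XRR_KO and at 0 in WT. With Rad21 degradation Tsga8 went from 0.310 to 1.75 FPKM on Xa and from a listed 0 to 1.46 FPKM on Xi. It was among the tested genes only through its dTAG levels, so nothing is read from these changes. 1700013H16Rik, which RefSeq also lists under the name Xlr6, was listed at 0 on both alleles in every group.

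For each member the 3 tested genes most like it were found by Pearson's correlation of log2(Xa FPKM + 0.5), centred within each table, over the 12 groups. The points of 1 group share a library pool, and the candidates were 232 or 233 genes, so high values are easily found. Xlr was most like Rps6ka6, a kinase gene (r = 0.79), then Gpkow (0.66) and Rps6ka3 (0.65), and without XistpA these values were 0.69, 0.43 and 0.52 over 11 groups. Xlr3a was most like Mtcp1 (0.97), 5530601H04Rik (0.95) and the mitochondrial enzyme gene Hsd17b10 (0.94). Without XRR_KO these values were 0.88, 0.75 and 0.77. In both cases the group left out still counted in the centring of its table. These values therefore still carry that group and do not show whether the likeness holds without it. Xlr3c was most like Atp6ap2, a proton pump accessory gene (0.94), Acot9 (0.93) and 2210013O21Rik (0.93). Xlr4a was most like Apoo (0.82), Pgk1 (0.81) and Ube2a (0.81). Among the members, Xlr3c had r = 0.58 with Xlr3a and 0.72 with Xlr4a, and Xlr had r = 0.20 with Xlr3c and -0.16 with Xlr3a. With Spearman's correlation, 1 of the 3 genes was shared for Xlr and for Xlr3c, and 0 for Xlr3a and for Xlr4a.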
